A study of Mus musculus with 12 samples.

Results

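Acidic CDR3s were defined as immunoglobulin heavy chain CDR3s, the loops formed where the V, D and J segments join, with a net charge of -2 or lower. The members were chosen by a value measured in the data, the net charge, counted as the number of arginines and lysines minus the number of aspartates and glutamates over the residues between the conserved cysteine that ends the variable segment and the conserved tryptophan that opens the joining motif. Of 546610 CDR3s found in unique translations without a stop, summed over 12 libraries, 73648 (13.5%) were acidic. As distinct amino acid sequences, 33453 of 216337 CDR3s (15.5%) were acidic. The libraries were made from B cells of the spleens of MRL-lpr females aged 14 weeks, a lupus-prone strain that is homozygous for the Fas lpr mutation in both groups. A total of 6 mice had received control SMO and 6 had received LFPRLR SMO, a splice-modulating DNA oligomer directed against the long form of the prolactin receptor. Both oligomers were linked to octaguanidine dendrimers and given by implanted minipump. Heavy chain transcripts were amplified with primers for the VHJ558 variable segments and the Cμ constant region, so that the libraries sample IgM transcripts of that VH family. The comparison asked whether the share and the make-up of acidic CDR3s differed between the groups.

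The CDR3 is the most variable loop of an antibody and lies at the centre of the antigen-binding site. It is built when a V, a D and a J segment are joined, with bases trimmed and added at each junction. Its charge is of interest in lupus because arginine-rich CDR3s are a known feature of antibodies to DNA, whereas aspartates and glutamates carry the opposite charge. An acidic residue in this loop can come from the J segment, from the D segment or from added bases. The V end, by contrast, usually contributes an alanine and an arginine.

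The 4 J ends and the leading members are printed first, since the letters show where the acidic residues lie. All sequences are coding strand, 5′ to 3′, as deposited, with aspartate and glutamate codons in capitals. The commonest last 3 codons of the CDR3 with the tryptophan codon after them were, for each J segment:
J1 end: ttcGATgtctgg
J2 end: tttGACtactgg
J3 end: tttgcttactgg
J4 end: atgGACtactgg
These 12 bases were found in 90.4% of the 63343 unique nucleotide sequences with a J1 end, 49.4% of 216377 with a J2 end, 70.4% of 190147 with a J3 end and 87.9% of 195603 with a J4 end. The J1, J2 and J4 ends each hold an aspartate codon, and the J3 end holds an alanine codon in its place.

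The acidic CDR3s named here were the most-read member of each library and the 3 members found in the most libraries. They came to 10, and each is shown from its first codon after the cysteine to its last codon before the tryptophan, in its most-read nucleotide version:
CDR3 A: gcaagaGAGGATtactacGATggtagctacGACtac
CDR3 B: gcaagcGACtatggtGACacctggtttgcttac
CDR3 C: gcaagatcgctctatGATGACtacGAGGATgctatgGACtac
CDR3 D: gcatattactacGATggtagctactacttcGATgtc
CDR3 E: gccacctatggtGACtacGACtac
CDR3 F: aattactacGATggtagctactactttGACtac
CDR3 G: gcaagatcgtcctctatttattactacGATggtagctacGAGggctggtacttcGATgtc
CDR3 H: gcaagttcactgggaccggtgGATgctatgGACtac
CDR3 I: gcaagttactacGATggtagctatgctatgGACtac
CDR3 J: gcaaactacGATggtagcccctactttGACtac
CDR3 B led in control SMO replicates 4, 5 and 7 and in LFPRLR SMO replicate 6. CDR3 A led in control SMO replicate 3, CDR3 C in control SMO replicate 8 and CDR3 D in control SMO replicate 9. CDR3 E led in LFPRLR SMO replicates 3 and 4, CDR3 F in replicate 5, CDR3 G in replicate 7 and CDR3 H in replicate 8. CDR3 B, CDR3 I and CDR3 J were found in the most libraries, ties being settled by share of reads. Their lengths ran from 8 residues (CDR3 E) to 20 residues (CDR3 G), and their net charges from -4 (CDR3 C) to -2 (8 of the 10).

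The printed letters show different ways of reaching a net charge of -2 or lower. CDR3 A carried 4 acidic residues and kept 1 basic residue at its V end, for a net charge of -3. CDR3 C carried 5 acidic residues, 4 of them before the J end, against 1 basic residue. CDR3 B, with a J3 end, had no acidic residue in its last 3 codons and held both of its aspartates before them. CDR3 G, the longest, set 3 acidic residues against 1 basic residue. CDR3 D, CDR3 E, CDR3 F, CDR3 H, CDR3 I and CDR3 J each had 1 aspartate in the J end, 1 before it and no basic residue. CDR3 A, CDR3 D, CDR3 F, CDR3 G and CDR3 I shared the 18-base stretch ttactacGATggtagcta, in which the aspartate codon is flanked by tyrosine and glycine codons. This stretch, looked for after it was seen in the named CDR3s, was found in 6.81% to 15% of the unique nucleotide sequences of acidic CDR3s per library and in 0.903% to 2.29% of those of the other CDR3s. Its median was 7.36% among acidic CDR3s of the control SMO group (range 6.83% to 12.4%) and 10.6% in the LFPRLR SMO group (6.81% to 15%), and the ranges overlapped.

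Depth differed between libraries. LFPRLR SMO replicate 6 held 627 reads, with 493 CDR3s of which 58 were acidic. The other 11 libraries held 130635 to 227202 reads, with 29184 to 67724 CDR3s and 3844 to 9505 members each. Some libraries of a group also shared abundant sequences. Control SMO replicates 5 and 7 had 44 of their 50 commonest translations in common, control SMO replicates 4 and 8 had 35, and LFPRLR SMO replicates 4 and 5 had 35. Across the groups, LFPRLR SMO replicate 6 shared 8 to 12 of its 50 with each of control SMO replicates 4, 5, 7 and 8. These pairs may therefore not be independent samples. The overall shares of translations and of reads, and the strata, are also given with each pair averaged. The reads carry no molecular identifiers, and the confidence intervals treat each translation as an independent draw. Since an abundant CDR3 can enter as many translations, the intervals cover counting error at most and may be too narrow.

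Acidic CDR3s made up a smaller share of the unique translations after LFPRLR SMO. In the control SMO libraries, replicates 3, 4, 5, 7, 8 and 9, the share was 14.2%, 14.0%, 16.8%, 14.4%, 13.9% and 13.2%. In the LFPRLR SMO libraries, replicates 3 to 8, it was 12.7%, 11.7%, 11.5%, 11.8%, 13.2% and 13.05%. The groups did not overlap, but control SMO replicate 9 and LFPRLR SMO replicate 7 were separated by only 0.00318 percentage points, and their 95% Wilson intervals (12.97% to 13.5% and 12.9% to 13.5%) overlapped. The mean was 14.4% ± 1.25 (SD, n = 6) for control SMO and 12.3% ± 0.764 (SD, n = 6) for LFPRLR SMO. The medians, 14.1% and 12.2%, differed by -1.89 percentage points (exact Mann–Whitney U test, two-sided, p = 0.00216, below which 6 against 6 cannot go, and 0.00433 after Benjamini-Hochberg adjustment over the 2 shares tested). The interval of LFPRLR SMO replicate 6 alone ran from 9.21% to 14.9%, and half-widths in the other libraries were 0.255 to 0.429 percentage points.

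Weighted by reads, the acidic share ranged more widely and the groups overlapped. It was 15.1%, 13.9%, 25.8%, 20.8%, 12.4% and 12.4% of reads in control SMO replicates 3, 4, 5, 7, 8 and 9. It was 12.9%, 10.7%, 7.99%, 11.8%, 12.8% and 11.2% in LFPRLR SMO replicates 3 to 8. Control SMO replicates 5 and 7, the pair with the most shared sequences, were the highest, and LFPRLR SMO replicate 5 was the lowest. The medians were 14.5% and 11.5%, a difference of -2.98 percentage points (exact Mann–Whitney U test, p = 0.0260, adjusted p = 0.0260), and 4 of the 6 LFPRLR SMO libraries lay below every control SMO library. With each pair of libraries that share sequences averaged, the exact p was 0.0635 for reads and 0.0159 for translations. A difference between the groups in read-weighted aspartate and arginine use was already known for these libraries, so the charge difference is not independent evidence of it.

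**Figure D1:**
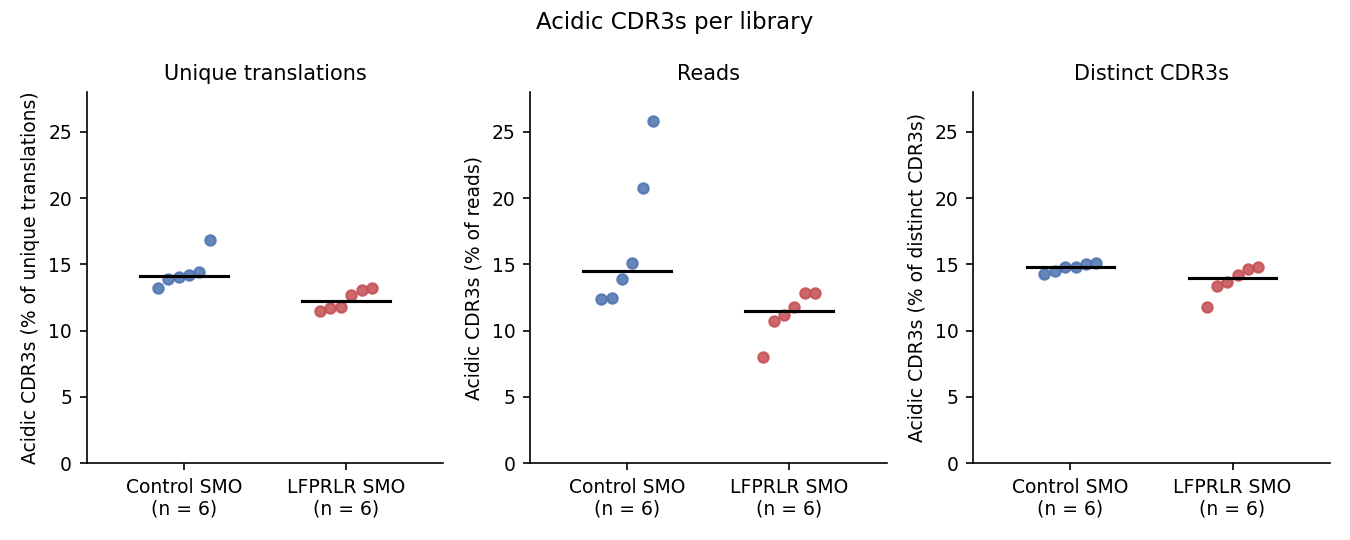
Share of acidic CDR3s in each library, as a percentage of unique translations, of reads and of distinct CDR3s (y axes), for control SMO (blue, n = 6) and LFPRLR SMO (red, n = 6). Each point is a library and each black line a group median, and the medians are 14.1% and 12.2% of translations, 14.5% and 11.5% of reads, and 14.8% and 13.9% of distinct CDR3s.

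The size of the difference depended on what was counted. A translation here is the whole amplicon, so an abundant CDR3 enters many times, with differences elsewhere in the read. CDR3 B, for instance, stood in 350 translations of control SMO replicate 5 and in 306 of replicate 7. Counting each distinct CDR3 of a library as 1, the acidic share was 15.03%, 14.5%, 14.8%, 14.3%, 14.8% and 15.1% in control SMO replicates 3, 4, 5, 7, 8 and 9. It was 13.7%, 13.4%, 14.2%, 11.8%, 14.7% and 14.8% in LFPRLR SMO replicates 3 to 8. The groups then overlapped, and the difference in medians was -0.861 percentage points (exact Mann–Whitney U test, p = 0.0260). The lowest value, that of LFPRLR SMO replicate 6, rested on only 458 distinct CDR3s. The test of distinct CDR3s was not repeated without that library or with sharing pairs averaged.

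Around the threshold, CDR3s at a net charge of -2, just inside it, numbered 58019 (10.6% of all), and those at -1, just outside, numbered 141467 (25.9%). Most members therefore lay at the boundary of the definition. In the control SMO group the median share of translations was 10.9% at -2, 2.54% at -3 and 0.514% at -4 or lower. In the LFPRLR SMO group it was 9.47%, 2.21% and 0.409%. At -1 the medians were 26.7% and 25.5%. At the basic side, CDR3s with a net charge of 2 took 4.78% of translations at the control SMO median and 6.75% at the LFPRLR SMO median.

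None of the 9 charge classes, each tested by translations and by reads, passed an adjusted p of 0.05 (0 of 18 tests, a background of 0%). At an unadjusted p under 0.05 there were 4. For the class at -2 by translations the exact Mann–Whitney U test gave p = 0.00866 (adjusted p = 0.0519), and for the class at -3 it gave p = 0.0411 (adjusted p = 0.167). The class at 2 gave an exact p of 0.00866 by translations and by reads (adjusted p = 0.0519 for each). Without LFPRLR SMO replicate 8, 5 of the 18 tests passed, among them the class at -2 by translations (adjusted p = 0.0312, exact Mann–Whitney U test).

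**Figure D2:**
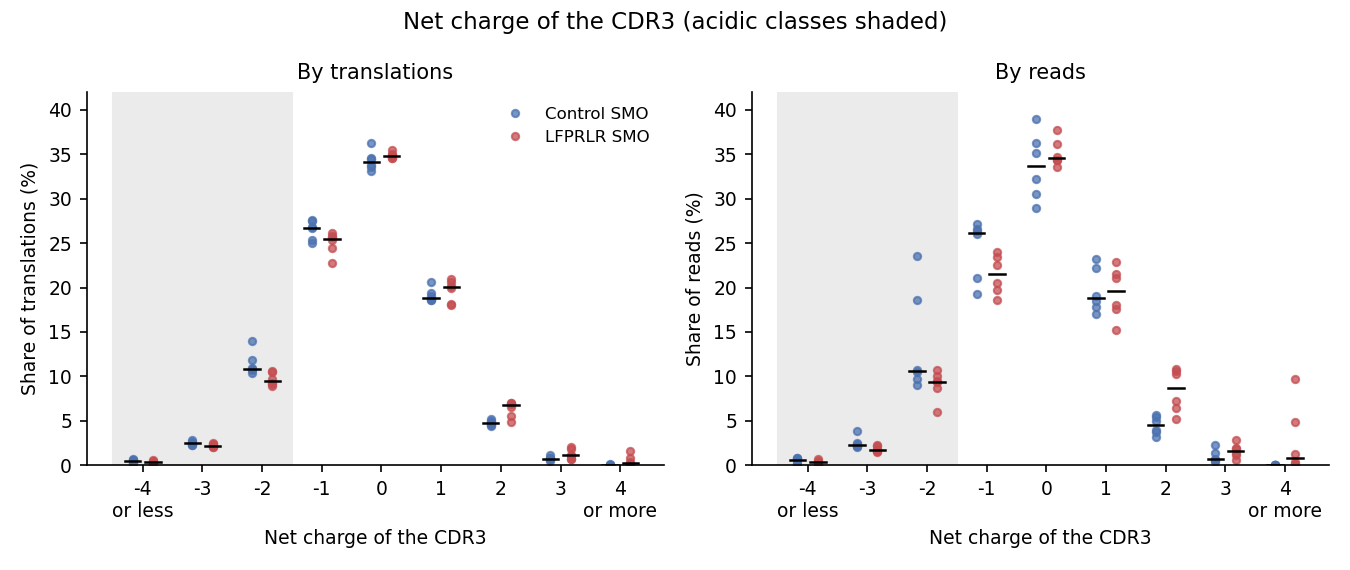
Share of CDR3s at each net charge (x axis, charge units), as a percentage of translations (left) and of reads (right), with the acidic classes shaded. Each point is a library, blue for control SMO and red for LFPRLR SMO, and black lines are group medians, which at a charge of -2 are 10.9% and 9.47% of translations.

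The acidic residues of the members were mostly aspartate and mostly lay before the J end. A member carried 2.896 acidic residues at the median of the libraries (range 2.71 to 3.04). The J end, meaning the last 3 residues before the tryptophan, held 32.1% of them (31.0% to 33.8%). The first 2 residues, the V end, held 1.14% (0.633% to 1.44%), and the stretch between, where the D segment and the junctions lie, held 66.7% (65.0% to 68.2%). Aspartate was 83.4% of all acidic residues in members (82.3% to 86.6%) and 89.2% in the other CDR3s (88.0% to 91.2%), so that glutamate took a larger part in members in each of the 12 libraries. Before the J end, the aspartate codon was GAT in 53.8% of cases in members (46.5% to 57.6%) and in 52.9% in the other CDR3s (48.8% to 57.4%).

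Although the J end held the smaller part of the residues, nearly all members had an acidic residue there. The share was 89.7% of members (85.2% to 92.5%) against 63.7% of the other CDR3s (62.7% to 65.4%). Members had 1.96 acidic residues before the J end on average (1.81 to 2.10) and the other CDR3s 0.538 (0.471 to 0.586). Without the J end, 29.7% of members (26.7% to 33.0%) would still have had a charge of -2 or lower. These contrasts are fixed in part by the rule and are given without a test.

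By position, the second residue before the tryptophan was acidic in 88.7% of members of at least 10 residues and in 67.7% of the other CDR3s of that length. The residue next to the tryptophan was acidic in 0.1598% of members and the third in 2.21%. Further in, the share rose to 31.4% of members at the seventh residue, against 10.8% of the other CDR3s. Members with 2, 3 and 4 or more acidic residues were 32.9%, 48.3% and 17.9% at the medians. Acidic residues next to each other were found in 28.3% of members (19.0% to 32.1%).

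**Figure D3:**
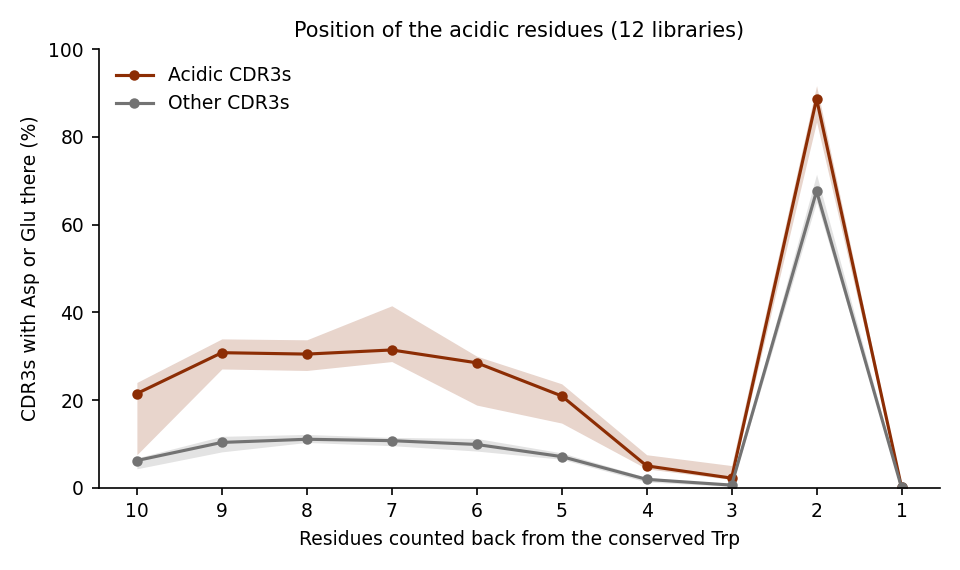
Percentage of CDR3s of at least 10 residues with aspartate or glutamate at each of the last 10 positions (x axis, residues counted back from the conserved tryptophan), for acidic CDR3s (brown) and the other CDR3s (grey). Lines are medians and bands the range over the 12 libraries; the second position reaches 88.7% in acidic CDR3s and 67.7% in the others.

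A basic residue was common at the V end in both sets. Arginine or lysine, the basic residues, stood at the second position in 56.5% of members (44.8% to 65.0%) and in 81.0% of the other CDR3s (77.9% to 84.5%). Serine stood there in 11.8% of members and 5.16% of the others, and tyrosine in 3.99% and 0.717%. No basic residue at all was found in 41.8% of members (32.6% to 55.2%) and in 12.5% of the others (10.1% to 16.8%). Basic residues count against membership, so these contrasts too are fixed in part by the rule.

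Members used the 4 J segments unequally. J4 ends were found in 39.1% of members (32.3% to 45.6%) and J2 ends in 34.8% (32.6% to 39.5%). J1 ends, 12.1% (10.1% to 16.3%), and J3 ends, 12.1% (8.62% to 16.6%), were rarer. In the other CDR3s J3 ends were 31.7% (27.6% to 32.3%), so that the segment without an aspartate codon was scarcer among members in all 12 libraries. This follows in part from the rule, since the other J ends supply an aspartate. Of members with a J3 end, 26.0% at the median had an acidic residue in the J end, against 99.5% with J4, 99.6% with J1 and 96.7% with J2. Members with a J3 end carried 2.43 acidic residues before it, against 1.81 for J1, 1.78 for J2 and 1.99 for J4.

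Acidic CDR3s were longer than the others, a contrast that may follow in part from the rule. Their mean length was 12.3 residues at the median of the libraries (11.9 to 12.9), against 10.8 (10.5 to 11.4). The difference was found with every J segment, with 13.01 against 11.8 residues for J4, 11.4 against 10.03 for J2, 12.8 against 11.9 for J1 and 12.1 against 10.6 for J3. In control SMO libraries the acidic share was 3.42% at 7 residues, 10.7% at 10, 15.1% at 12 and 26.8% at 16. In LFPRLR SMO libraries it was 3.15%, 9.88%, 12.02% and 24.8% at these lengths. Of the 16 lengths from 5 to 20 residues, 3 had the higher median in LFPRLR SMO libraries, with 15.7% for control SMO and 16.04% for LFPRLR SMO at 13 residues, 30.6% and 36.7% at 18, and 55.8% and 60.2% at 20. Over the 12 libraries, 26 members were longer than 25 residues, and without CDR3s of that length the difference between the groups in the share of translations was again -1.89 percentage points.

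Amino acid motifs that D segments encode in a reading frame were counted in both sets, without a test. Motifs that hold an aspartate are favoured among members by the rule. No reference set of this strain's D segments was used, so the share of a motif does not measure how often its segment was used. YDYD, from DSP2.2, was found in 5.21% of members and 0.487% of the others, and YDGYY, from DSP2.9, in 2.14% and 0.665%. NWD, from the short segment DQ52, was found in 2.04% of members and 0.998% of the others, with members higher in all 12 libraries. DSSG, from DST4, was found in 1.08% of members and 0.984% of the others, with members higher in 6 of 12 libraries. The motifs without an acidic residue, YGN from DSP2.5 and YYGS from DFL16.1, were found in 1.85% and 0.00558% of members and in 3.65% and 0.0425% of the others. YYGS was thus rare in both sets, and the use of DFL16.1 in any other form was not measured. YRYD, from DSP2.11, which pairs an aspartate with an arginine, was found in 0.383% of members and 0.670% of the others. The commonest of those counted was YDGS, which was added after the named CDR3s were seen, with 19.4% of members (18.02% to 22.4%) and 5.98% of the others (3.68% to 7.41%). The D segment behind YDGS was not assigned. Tyrosine made up 24.99% of all residues in members (24.3% to 25.5%) and 20.9% in the others (20.2% to 21.6%).

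The make-up of the members did not pass a test between the groups. Over 15 properties in acidic and in other CDR3s, 0 of 30 tests had an adjusted p under 0.05 (a background of 0%, exact Mann–Whitney U test). With 30 tests a lone property cannot fall below an adjusted p of 0.0649 in this design. At an unadjusted p under 0.05 there were 2, both in the other CDR3s. Their mean net charge had medians of 0.0582 for control SMO and 0.175 for LFPRLR SMO (exact p = 0.00433). Tyrosine was 21.3% and 20.7% of their residues (exact p = 0.0260). The median net charge was thus higher after LFPRLR SMO outside the members too, without passing adjustment. Whether the lower acidic share is particular to acidic CDR3s was not tested. Mean length of members was 12.4 residues for control SMO against 12.2 for LFPRLR SMO (medians of 6, exact p = 1, adjusted p = 1). J4 ends were 38.8% and 40.4% of members, J3 ends 12.4% and 11.7%, J2 ends 34.4% and 34.8% and J1 ends 12.4% and 11.9%. An acidic residue in the J end was found in 89.4% and 89.9%, and acidic residues before it numbered 1.96 in both groups. Members at -2 or lower without the J end were 29.7% and 29.6%, aspartate was 83.6% and 83.2% of the acidic residues, and no basic residue was found in 41.1% and 41.8%. A basic second residue was found in 56.9% and 56.5% of members, tyrosine was 24.95% and 24.99% of residues, and the mean net charge of members was -2.26 and -2.24. The smallest p among members was for glycine, 9.02% and 9.23% of residues (exact p = 0.0649, adjusted p = 0.649). Mean reads per member translation were 3.04 and 2.49 (exact p = 0.132, adjusted p = 0.660). Missing the threshold does not show that these values were alike.

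The share of acidic CDR3s was next compared within J segments and within lengths. Medians were lower after LFPRLR SMO in each of the 8 strata, and 1 of 8 tests passed an adjusted p of 0.05 (12.5%). That was the stratum of 12 to 14 residues. There, the acidic share of translations was 17.2%, 17.1%, 19.9%, 18.3%, 16.6% and 17.1% in control SMO replicates 3, 4, 5, 7, 8 and 9. It was 15.2%, 14.3%, 14.1%, 11.6%, 15.9% and 15.9% in LFPRLR SMO replicates 3 to 8. The groups did not overlap, and the medians differed by -2.43 percentage points (exact Mann–Whitney U test, p = 0.00216, adjusted p = 0.0173). The lower median held at 12 residues (15.1% and 12.02%) and at 14 (22.8% and 17.3%) but not at 13. With each pair of libraries that share sequences averaged, the difference was -1.96 percentage points with an exact p of 0.0159, the smallest that 4 against 5 allows, and no stratum passed adjustment, since a lone call cannot fall below an adjusted p of 0.127 there. Counting each distinct CDR3 once, the difference was -0.621 percentage points (exact p = 0.180).

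The other strata did not pass. Within J1 ends the median acidic share was 19.6% for control SMO against 15.8% for LFPRLR SMO (exact p = 0.0411, adjusted p = 0.110), and within J2 ends 15.6% against 13.8% (exact p = 0.0260, adjusted p = 0.104). Within J4 ends the medians were 18.3% and 16.7% (adjusted p = 0.1299) and within J3 ends 5.78% and 4.89% (adjusted p = 0.287, exact Mann–Whitney U test for both). CDR3s of up to 8 residues were acidic in 4.82% and 4.03%, those of 9 to 11 residues in 12.02% and 10.6%, and those of 15 or more in 26.3% and 24.3% (adjusted p = 0.554, 0.525 and 0.699, exact Mann–Whitney U test). A difference between strata was not tested.

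**Figure D4:**
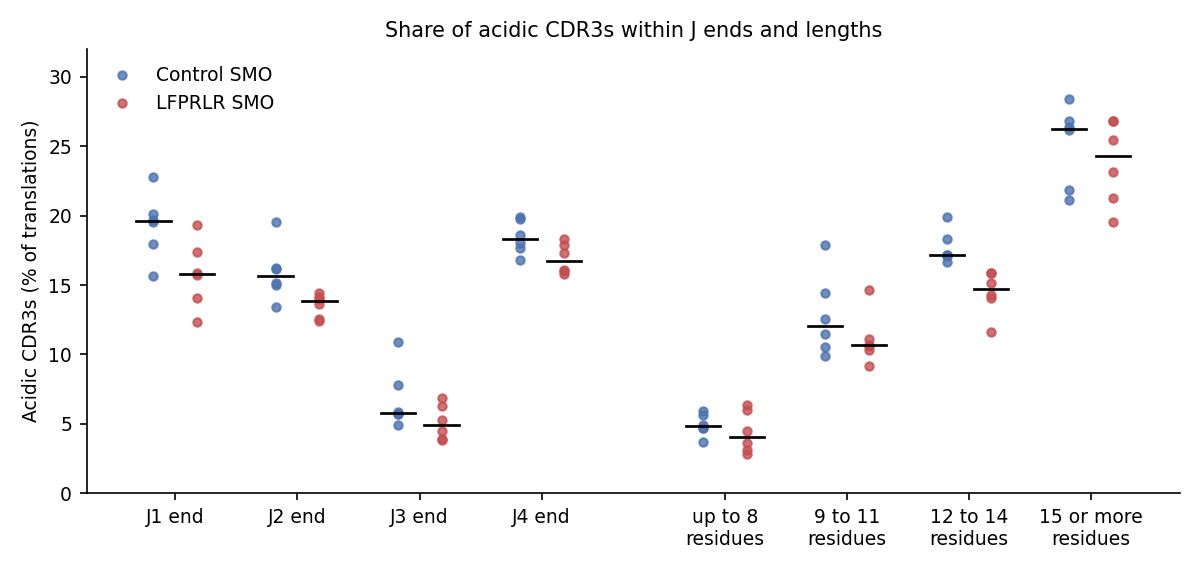
Share of acidic CDR3s among translations (y axis, percent) within each J segment and within 4 length bins, for control SMO (blue) and LFPRLR SMO (red). Each point is a library and black lines are group medians; at 12 to 14 residues the control SMO libraries run from 16.6% to 19.9% and the LFPRLR SMO libraries from 11.6% to 15.9%.

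The reads behind the acidic share were concentrated to different degrees. The 10 leading acidic CDR3s held 67.6% of acidic reads in control SMO replicate 5 and 57.7% in replicate 7, and 17.1% to 34.3% in the other 10 libraries. CDR3 B alone took 8.06% of all reads in control SMO replicate 5 and 4.77% in replicate 7, with 10677 and 6954 reads. CDR3 J took 3.02% and 2.35% in these same libraries. In the other libraries of at least 130635 reads, CDR3 B ranged from no read in control SMO replicate 3 to 0.530% in control SMO replicate 4. In LFPRLR SMO replicates 3, 4, 5, 7 and 8 it had 14, 6, 13, 36 and 4 reads, and in LFPRLR SMO replicate 6 it had 8 of 567 reads with a CDR3. Among the 100 most-read CDR3s of a library, 13 to 24 were acidic with control SMO, against 9 to 17 with LFPRLR SMO (medians 17.5 and 12, p = 0.0649 in an exact Mann–Whitney U test).

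In the LFPRLR SMO libraries no named member took more than 1.57% of all reads. CDR3 E had 1938 reads (1.35%) in replicate 3 and 1810 (1.57%) in replicate 4, 254 in replicate 7 and none in replicates 5, 6 and 8. It had 30, 19 and 38 reads in control SMO replicates 4, 7 and 9. CDR3 F was found in 11 libraries, with 658 reads in LFPRLR SMO replicate 5 and 504 in control SMO replicate 5. CDR3 G had 847 reads in LFPRLR SMO replicate 7 and 9 or fewer elsewhere, and CDR3 H had 1028 in LFPRLR SMO replicate 8 and 1 or none elsewhere. CDR3 I, the only member found in all 12 libraries, had 1 to 125 reads in each. CDR3 A was almost private, with 2834 reads in control SMO replicate 3 and 1 in LFPRLR SMO replicate 8.

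Where a named CDR3 was found in several libraries, it was usually the same nucleotide sequence. The printed version of CDR3 B made up 99.8% of its reads and was found in all 11 libraries that held the CDR3. The printed versions of CDR3 F and CDR3 J were likewise in 11 of 11, and that of CDR3 I, 88.5% of its reads, in 10 of 12. Whether such sharing arose in the mice or between libraries was not tested. Over all members, 28493 of 33453 distinct acidic CDR3s (85.2%) were found in 1 library only, 1848 (5.52%) in both groups and 178 (0.532%) in 6 or more libraries. Of the other distinct CDR3s, 148326 (81.1%) were likewise found in 1 library only. Their shares in both groups and in 6 or more libraries are not given here.

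**Figure D5:**
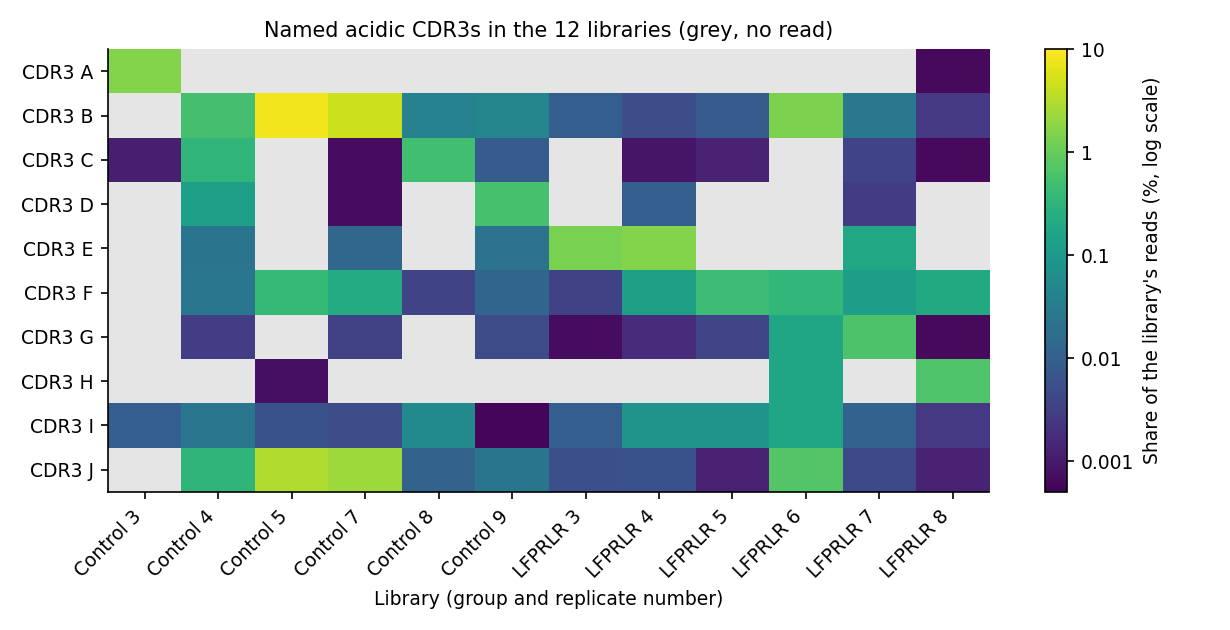
Share of each library's reads (colour, percent on a log scale, grey for no read) taken by the 10 named acidic CDR3s (rows) in the 12 libraries (columns). CDR3 B reaches 8.06% and CDR3 J 3.02% in control SMO replicate 5, and CDR3 E reaches 1.57% in LFPRLR SMO replicate 4.

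Measures that the rule had not used were compared between members and the other CDR3s of the same library, in 6 two-sided exact sign-flip tests over the 12 libraries, chosen after the data were seen. The tests treat the 12 libraries as independent, which pairs that share sequences may not be, and were not repeated with pairs averaged. Being found in another library also depends on the other libraries, so those values are not independent of each other. Distinct acidic CDR3s were found in another library less often than the others in all 12 libraries, at 33.3% against 41.8% in the median library (p = 0.000488, the smallest the permutations can give, adjusted p = 0.00146). Counted by translations, a closely related measure, the shares were 59.3% and 69.1%, with members lower in all 12 libraries (exact p = 0.000488, adjusted p = 0.00146). Members are longer. Among distinct CDR3s of 12 residues the shares were 34.8% and 37.4%, with members lower in 9 of 12 libraries (exact p = 0.855, adjusted p = 0.855). The sign-flip test weighs the mean difference, which a single extreme library can shift. At 12 residues the shares ran from 12.6% to 100% in members and from 12.6% to 81.8% in the others. Whether length accounts for the lower sharing was not tested. Phenylalanine in place of tyrosine just before the cysteine, a V segment feature, was found in 21.4% of members and 18.02% of the others, higher in 11 of 12 libraries with a median within-library difference of 0.906 percentage points (exact p = 0.00732, adjusted p = 0.0146). Translations read once were 64.5% of members and 64.4% of the others, with members higher in 8 of 12 (median difference 1.02 percentage points, exact p = 0.0312, adjusted p = 0.0469). Mean reads per translation were 2.69 and 2.63, with members higher in 5 of 12 libraries (exact p = 0.712, adjusted p = 0.854). Compared between the groups, the smallest exact Mann–Whitney p for these within-library differences was 0.0649, for translations read once.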

How the data were processed

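The heavy chain repertoire was measured in 12 libraries of splenic B cells, 6 per group. Per the labels and the study's methods, RNA was amplified with VHJ558 and Cμ primers and sequenced on a MiSeq in paired reads. The authors then deposited, for each library, a table of unique nucleotide sequences and a table of unique translations, each with its read count. How read pairs were merged, trimmed or filtered is not given in the sources used here, no genome build is named, and no molecular identifiers were used, so the counts are raw read counts that keep sequencing and PCR errors as extra unique sequences.

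From the translated tables, translations with a stop and rows without a translation were left out. The CDR3 was taken between the cysteine of a tyrosine or phenylalanine pair ending at residue 16 to 30 and the tryptophan of the last joining motif, which was found in 91.6% to 95.7% of translations. The J segment was read from the residues after the tryptophan. Groups were compared over libraries with two-sided exact Mann–Whitney U tests and Benjamini-Hochberg adjustment within each family of tests, in Python 3.11.15 with NumPy 2.4.6 and SciPy 1.17.1, after the scripts had been tested on simulated data. Strata with fewer than 20 CDR3s in a library left that library out. The named CDR3s were the most-read acidic CDR3 of each library and the 3 found in the most libraries. The members and lists were chosen with earlier results of these data known. Alternatives covered the counting unit, the threshold, read minimums, abundant CDR3s, library sets, pairing and each library in turn. Library sets were formed by a second version of the Cμ end. Among the unique nucleotide sequences in which either version was found, it made up 33.1% to 40.1% in 6 libraries (control SMO replicates 4, 7 and 9, LFPRLR SMO replicates 3, 4 and 7) and 0.128% to 2.26% in the other 6.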

Additional observations from a re-analysis of the deposited data

Results flagged for a closer look

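In 3 of 62 groups of 6 values, 1 library stood well apart, and chance flags about 1 in 20 such groups. Control SMO replicate 5 had 16.8% acidic CDR3s among translations, where the rest of the group ran from 13.2% to 14.4%. Control SMO replicate 3, which holds CDR3 A, had 3.84% of reads at a net charge of -3, against 2.03% to 2.54%. LFPRLR SMO replicate 6, with 493 CDR3s, had 14.7% acidic CDR3s among those of 9 to 11 residues, against 9.14% to 11.1%.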

How the results depend on the processing

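The acidic share of translations was lower after LFPRLR SMO under every alternative run. The difference in medians was -0.359 percentage points at a threshold of -3 (exact p = 0.0649), and it lay between -0.493 (charge without the last 3 residues) and -3.78 (charge without the first 2) under the other ways of counting, all with an exact p under 0.05. The share itself also moved with these settings. At a threshold of -3 the medians were 2.95% for control SMO and 2.59% for LFPRLR SMO. They were 4.19% and 3.69% without the last 3 residues, and 32.5% and 28.7% without the first 2. Leaving out 1 library at a time gave -2.36 to -1.41 percentage points (exact p = 0.00433 each time). For reads, leaving out 1 library gave -3.61 to -2.36. The exact p was 0.0519 without control SMO replicate 3, 4, 5 or 7 or LFPRLR SMO replicate 4, 5, 6 or 8. It was 0.0173 without each of the other libraries in turn. The call at 0.05 was thus not stable to leaving out a library, while the difference stayed negative. The read difference was also -2.30 without CDR3s that had a larger share of reads in another library (exact p = 0.0931) and -2.30 with sharing pairs averaged (exact p = 0.0635). Alternatives chosen after seeing the data gave, without control SMO replicates 5 and 7 and LFPRLR SMO replicate 6 together, -1.25 for translations (exact p = 0.0159) and -1.96 for reads (exact p = 0.190). Without the 10 most-read CDR3s and those within 1 substitution of them, they gave -1.49 for translations and -2.24 for reads (exact p = 0.0260 for both).

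Within the first library set the differences were -2.47 for translations and -3.92 for reads, and within the second -1.31 and -1.04 (exact p = 0.1, 0.1, 0.1 and 0.4, with 0.1 the smallest that 3 against 3 allows). With labels permuted within sets the exact p was 0.005 and 0.04. Both groups hold replicate numbers 3, 4, 5, 7 and 8, but same-numbered libraries did not deviate together (correlations of -0.234 to -0.0330 over 32 measures). The measures are related to each other, so these correlations cannot decide whether the numbers mark pairs. With the replicate block, the median differences were -1.52 for translations and -3.13 for reads (exact p = 0.0625, the smallest that 5 pairs allow), and 0 of 8 strata passed, as also with sharing pairs averaged (an alternative chosen after seeing the data).

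The number of strata that passed was 2 with at least 2 reads, where J4 ends joined, and 1 to 2 when a library was left out, with J1 ends joining without control SMO replicate 8 and J2 ends without control SMO replicate 9. With each distinct CDR3 counted once it was 1, the J2 ends in place of 12 to 14 residues. Charge classes that passed numbered 0 to 5 when a library was left out, with 5 only without LFPRLR SMO replicate 8. Properties numbered 0 of 30 throughout, which says nothing about their stability, since a lone property could not pass. No residue was undetermined in the translations, so that alternative left nothing out and has no value. The depth of LFPRLR SMO replicate 6 limits all values of that library.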
